A study of Mus musculus with 12 samples.

Results

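The E2F family holds 8 genes, E2f1 to E2f8, of the 33696 genes counted in these libraries, and all 8 passed the filter on low counts in every fit used here. The family was selected on its counts relative to all UMIs of the same cells, on the CPM scale, and its shares of cells with a UMI, by compartment and label, in cells with at least 1 UMI of Mki67 and in the other cells. A UMI is the molecular identifier that marks 1 captured transcript, and Mki67, which encodes the Ki-67 protein of proliferating cells, served to divide cycling from other cells. Levels and differences of the family in these comparisons are therefore given as a description, without a test.

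Single cells were profiled by 10x Genomics 3′ RNA-seq from wild-type mice (WT) and from mice with a germline knockout of Gfi1 (KO), which encodes a zinc finger repressor of transcription, both on a C57BL6/J background. The compartments were splenic γδ T cells (CD3+ CD4neg), thymic γδ T cells (CD8neg CD4neg) and immature thymocytes of the stages DN1 to DN3, which lack both CD4 and CD8 and were sorted together. All mice were adult, and B, myeloid and NK cells were depleted with magnetic beads before sorting, as was a part of the CD8+ cells in thymus. WT and KO cells of a pool carried different hashtag antibodies and shared 1 droplet run. Each compartment had 2 pools, which gives 2 libraries labelled WT and 2 labelled KO. The sources used here do not say how many mice went into a library, so the errors cover the spread between these libraries only. The knockout is present in all cells of the mouse, so that effects within γδ T cells and effects of the environment cannot be told apart.

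The 96911 cells kept were spread over 12 libraries with 6795 to 11679 cells each and a median of 4947 to 6853 UMIs per cell. Gfi1 itself was not lower with the label KO. It lay at 11.8 and 18.0 CPM with the label WT and at 18.1 CPM in both KO libraries in spleen, at 16.5 and 17.6 against 28.9 and 19.2 CPM in thymic γδ T cells, and at 44.7 and 40.6 against 70.6 and 56.6 CPM in DN1-DN3 cells. The 3′ end counted here need not cover the altered part of the gene, so this is no check of the labels. All 6 of the γδ T cell markers found in the files were detected in every γδ T cell library, at a summed level of at least 4185 CPM. Xist, transcribed from the inactive X chromosome, was at most 0.374 CPM in splenic and at least 739 CPM in thymic libraries, so that tissue and sex of the mice cannot be told apart. Ddx3y, a Y-linked gene, lay at 82.2 to 100.3 CPM in splenic and 24.3 to 35.8 CPM in thymic γδ libraries, so the thymic libraries also held male cells. In DN1-DN3 cells it lay at 28.02 and 25.96 CPM in WT and 11.6 and 14.2 CPM in KO, where the label and the mix of sexes cannot be told apart. Libraries of 1 pool shared no cell barcode, and any pair of libraries from different pools shared 5 to 34.

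E2F proteins bind DNA as dimers with a DP protein, or alone in the case of E2F7 and E2F8, at sites in promoters of genes for DNA replication and cell division. E2F1, E2F2 and E2F3 activate these genes once cyclin-dependent kinases have released them from the retinoblastoma protein, E2F4 and E2F5 act mainly as repressors in complex with the related pocket proteins, E2F6 works with polycomb proteins, and E2F7 and E2F8 repress the same genes late in S phase. In developing T cells the family is known for the control of entry into the cell cycle, and loss of E2F2 is known to lower the threshold for T cell proliferation.

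Promoters of 4 members are shown, those of E2f2, E2f3, E2f7 and E2f8, because they are the members whose levels the results turn on or whose windows hold letters read by the cell cycle machinery. The windows run from 250 bases before to 50 bases after the RefSeq start site, in assembly GRCm38.p6, and are written in the direction of the gene. Capitals mark the letters TTTCCCGC, TTTGGCGC, TTTCGCGC or TTTGCCGC, used here as the E2F site, and TTTGAA, the cell cycle homology region (CHR) of late cell cycle genes, on either strand.
E2f2, chr4:136172024-136172323, plus strand: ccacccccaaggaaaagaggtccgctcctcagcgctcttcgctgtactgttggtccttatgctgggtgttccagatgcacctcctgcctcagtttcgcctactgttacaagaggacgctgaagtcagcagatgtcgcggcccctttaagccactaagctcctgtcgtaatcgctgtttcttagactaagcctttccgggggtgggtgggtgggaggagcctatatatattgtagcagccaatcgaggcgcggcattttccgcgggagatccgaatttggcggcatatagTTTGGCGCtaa
E2f3, chr13:29986014-29986313, minus strand: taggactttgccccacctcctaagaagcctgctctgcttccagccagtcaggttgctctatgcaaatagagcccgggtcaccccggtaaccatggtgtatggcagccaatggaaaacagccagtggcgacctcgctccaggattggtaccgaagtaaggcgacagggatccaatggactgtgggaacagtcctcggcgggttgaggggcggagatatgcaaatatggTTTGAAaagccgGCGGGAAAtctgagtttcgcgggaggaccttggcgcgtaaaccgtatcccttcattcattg
E2f7, chr10:110745189-110745488, plus strand: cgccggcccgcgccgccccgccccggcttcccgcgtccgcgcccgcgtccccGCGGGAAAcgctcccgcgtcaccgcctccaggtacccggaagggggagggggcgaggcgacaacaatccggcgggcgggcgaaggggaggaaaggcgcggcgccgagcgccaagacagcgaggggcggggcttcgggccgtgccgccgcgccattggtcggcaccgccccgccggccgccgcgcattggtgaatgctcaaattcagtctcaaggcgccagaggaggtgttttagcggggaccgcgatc
E2f8, chr7:48881547-48881846, minus strand: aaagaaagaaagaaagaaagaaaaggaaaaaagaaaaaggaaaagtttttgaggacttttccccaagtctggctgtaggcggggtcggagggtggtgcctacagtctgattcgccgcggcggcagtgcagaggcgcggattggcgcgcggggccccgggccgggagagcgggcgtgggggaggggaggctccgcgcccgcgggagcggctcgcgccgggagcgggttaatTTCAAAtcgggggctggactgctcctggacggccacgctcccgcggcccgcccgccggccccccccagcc

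The E2f2 window shown holds TTTGGCGC, which begins 40 bases after the start site. RefSeq gives E2f2 a second window, chr4:136180532-136180831, which is not shown and holds none of the E2F site letters but a CHR from base -31. E2f3 likewise has a second window that holds neither motif, and the one shown holds both motifs close together, with GCGGGAAA (TTTCCCGC on the other strand) from base -11 and TTTGAA from base -23. In E2f7 the same GCGGGAAA begins at base -198, and E2f8 has TTTGAA on the other strand from base -20 and none of the 4 E2F site letters. RefSeq tables gave 8 windows for 6 members. E2f4 and E2f5 were not in the table used here. An E2F site was found in 3 of the 8 windows, against 2.26% of 32851 windows of all genes, and a CHR in 3 of the 8, against 17.9% of all windows. The CCAAT box, searched as CCAAT on both strands, was in 5 of the 8 windows and in 37.4% of all. AAATCA, the core of the site that GFI1 binds, was in none of the 8 and in 14.0% of all, which says only that these letters are absent from these windows. The start sites shown for E2f3, E2f7 and E2f8 lie in an exon of the GENCODE annotation of GRCm38, and that of E2f2 lies 120 bases before the nearest annotated transcript start, against 1 base for the second E2f2 window. The start site of the E2f1 window, which is not shown, lies in an exon 294 bases after the nearest annotated transcript start. That whole window thus lies within the annotated gene.

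E2f2, an activator, had the largest difference of the 8 members in spleen over all cells, and it differed in opposite directions in the γδ T cells of spleen and thymus. In thymic γδ T cells over all cells, E2f8 and E2f1 differed by more than E2f2. In spleen it lay at 11.3 and 8.30 CPM in the libraries labelled WT and at 56.2 and 53.6 CPM in those labelled KO. The thymic γδ libraries held 39.0 and 47.1 CPM in WT and 14.9 and 11.3 CPM in KO. In DN1-DN3 cells it lay at 60.7 and 56.4 CPM with the label WT and at 32.4 and 41.3 CPM with the label KO. The labels did not overlap in any compartment, and spleen was the only one of the 3 where the KO libraries were the high ones. On the log2 scale, KO minus WT was 2.59 (SE 0.19) in spleen, -1.60 (SE 0.19) in thymic γδ T cells and -0.66 (SE 0.18) in DN1-DN3 cells. Ranked by mean level, DN1-DN3 WT (58.5 ± 3.08 CPM, SD, n = 2) came before splenic KO (54.9 ± 1.85), thymic γδ WT (43.0 ± 5.68), DN1-DN3 KO (36.8 ± 6.25), thymic γδ KO (13.1 ± 2.49) and splenic WT (9.80 ± 2.13). Of the neighbours in this order, only thymic γδ WT and DN1-DN3 KO overlapped in their libraries, while DN1-DN3 WT and splenic KO, and thymic γδ KO and splenic WT, were no further apart than their SDs added together.

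The share of cells with a UMI of E2f2 followed its level. In spleen it was 4.30% and 3.05% in WT and 23.8% and 23.5% in KO. Among thymic γδ T cells, 17.2% and 20.7% of WT and 5.80% and 4.31% of KO cells had one. The splenic share differed at similar depth, since the median cell held 4947 and 5025.5 UMIs in WT and 5458 and 5402 in KO. No sorted population here is known to lack E2f2, so the lowest share, 3.05% in a splenic WT library, is the nearest to a background level. Cells were also thinned to 2000 UMIs each, and cells with fewer UMIs were left out of all results in thinned cells. The cells left out were a larger part of each splenic WT library than of either splenic KO library. Thinned cells of the labels are therefore equal in depth but not the same selection of cells. In them the splenic shares were 1.67% and 1.28% in WT and 9.95% and 9.21% in KO. The thymic γδ shares were 5.46% and 5.95% against 1.99% and 1.40%.

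**Figure D1:**
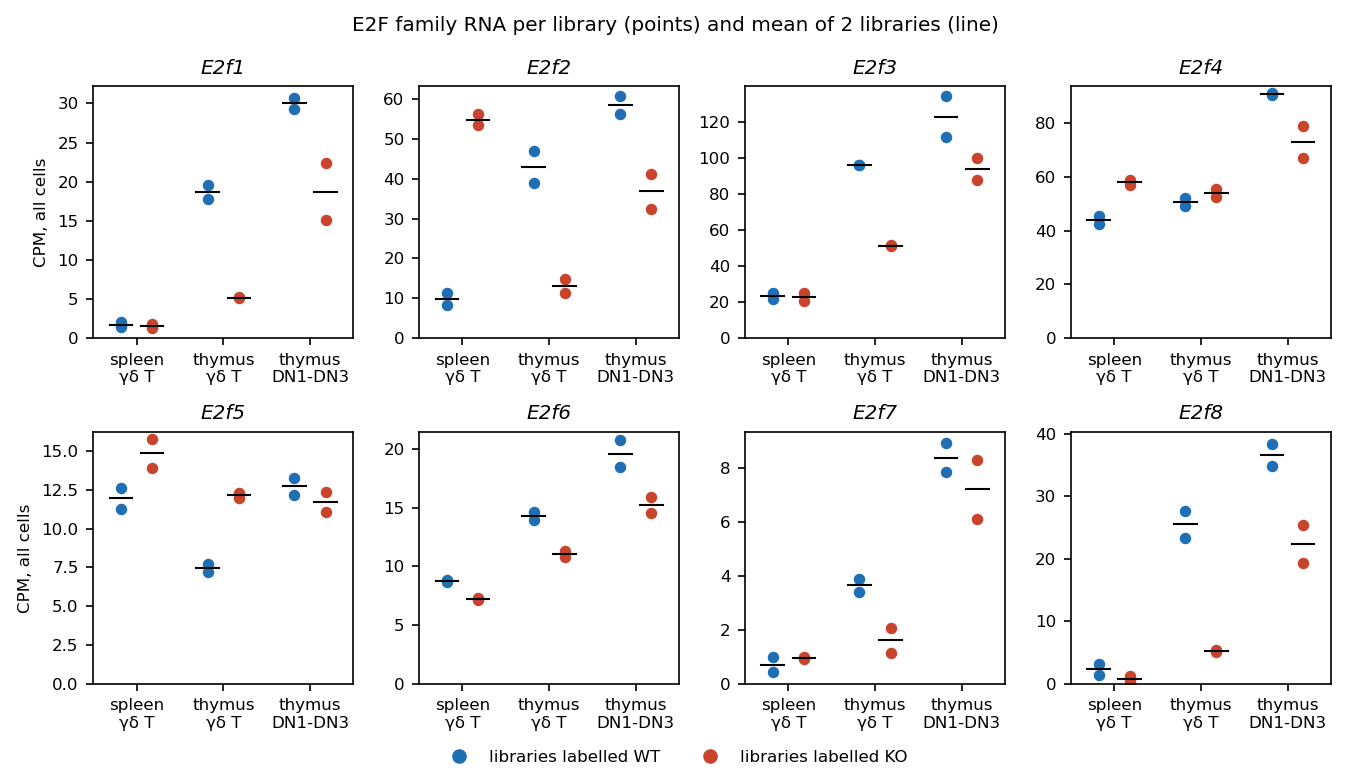
Level of the 8 E2F genes over all cells of each library, in CPM on a linear axis from 0 that differs between genes, with 1 point per library and the mean of each label as a line. E2f2 was at 53.6 and 56.2 CPM in the splenic KO libraries against 8.30 and 11.3 CPM in splenic WT, and lower with the label KO in both thymic compartments.

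E2f1 and E2f3, the other activators, did not share the splenic difference. E2f1 was scarce in spleen, at 2.04 and 1.36 CPM in WT and 1.77 and 1.29 CPM in KO, and the labels overlapped. Its thymic γδ values were 17.7 and 19.6 CPM against 5.29 and 5.05 CPM, and its DN1-DN3 values 30.8 and 29.3 against 15.05 and 22.4 CPM, so that every WT library was above every KO library in these compartments. E2f3 lay at 24.9 and 21.6 CPM in splenic WT and at 24.9 and 20.2 CPM in splenic KO, again with overlap. Thymic γδ T cells held E2f3 at 96.2 CPM in both WT libraries and at 51.1 and 51.4 CPM in the KO libraries, and in DN1-DN3 cells at 134 and 112 against 87.4 and 100.1 CPM. The log2 differences in thymic γδ T cells were -1.73 (SE 0.24) for E2f1 and -0.79 (SE 0.14) for E2f3. In spleen they were -0.05 (SE 0.28) and 0.05 (SE 0.14).

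The pocket-bound repressors E2f4 and E2f5 were higher with the label KO in both γδ T cell compartments. E2f4 lay at 42.7 and 45.4 CPM in splenic WT and 57.1 and 59.0 CPM in splenic KO, at 49.3 and 52.0 against 55.7 and 52.6 CPM in thymic γδ T cells, and at 91.5 and 90.8 against 67.1 and 79.0 CPM in DN1-DN3 cells. The KO libraries of E2f4 were the lower ones in DN1-DN3 cells only. Its log2 differences were 0.49 (SE 0.11), 0.22 (SE 0.11) and -0.31 (SE 0.11) in spleen, thymic γδ T cells and DN1-DN3 cells. The last ranged from -0.50 to -0.16 when 1 library was left out. E2f5 lay at 11.3 and 12.6 against 13.9 and 15.8 CPM in spleen and at 7.70 and 7.19 against 12.3 and 11.97 CPM in thymic γδ T cells, with log2 differences of 0.41 (SE 0.10) and 0.83 (SE 0.10). Its DN1-DN3 values overlapped, with 13.3 and 12.2 CPM in WT and 12.4 and 11.1 CPM in KO.

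Among the repressors that work without pocket proteins, E2f8 and E2f7 were lowest in spleen and E2f6 differed less between compartments. E2f8 lay at 3.14 and 1.46 CPM in splenic WT and 1.17 and 0.489 CPM in splenic KO, at 23.3 and 27.7 against 5.36 and 5.09 CPM in thymic γδ T cells, and at 38.4 and 34.9 against 19.3 and 25.4 CPM in DN1-DN3 cells. The KO libraries were lower in each compartment, with log2 differences of -1.40 (SE 0.43), -2.17 (SE 0.34) and -0.71 (SE 0.32). Leaving out 1 library gave -2.13 to -0.79 in spleen and -0.98 to -0.48 in DN1-DN3 cells. E2f7 was at most 8.90 CPM. In spleen its labels overlapped, at 0.974 and 0.454 CPM in WT and 0.983 and 0.921 CPM in KO, and in thymic γδ T cells it lay at 3.39 and 3.89 against 2.08 and 1.15 CPM. E2f6 was slightly lower with the label KO in each compartment, at 8.84 and 8.64 against 7.33 and 7.12 CPM in spleen, 14.0 and 14.7 against 10.8 and 11.3 CPM in thymic γδ T cells, and 20.8 and 18.4 against 14.5 and 15.9 CPM in DN1-DN3 cells. In bulk sums of this kind, fewer expressing cells and less RNA per cell cannot be told apart. Levels were also taken within cells with and without Mki67, to see differences apart from the share of cycling cells. Those levels are sums of the same kind.

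Levels of other cell types moved with the splenic labels. Summed over their marker lists, B cell markers lay at 442 and 222 CPM in splenic WT against 120 and 63.2 CPM in splenic KO, NK markers at 80.6 and 85.1 against 10.3 and 9.60 CPM, erythroid markers at 44.9 and 39.2 against 169 and 75.4 CPM, and myeloid markers at 106 and 91.5 against 313 and 337 CPM. Single genes carried the larger sums. Cst3 made up nearly all of the myeloid sum, at 102 and 90.7 against 312 and 337 CPM, and the other myeloid genes, Lyz2, Csf1r, Itgam, S100a8 and S100a9, were at most 3.14 CPM and not higher with the label KO as a group. Ighm made up most of the B cell sum in splenic WT, at 411 and 195 against 67.6 and 10.5 CPM, while Cd79b lay at 27.9 and 23.7 against 50.9 and 50.8 CPM. The αβ T cell list, which holds receptor chains, Cd4 and the Cd8 genes, lay at 1745 and 1806 against 1031 and 993 CPM. Within it, Cd8b1 lay at 112 and 100.1 against 5.38 and 4.40 CPM. Cd4 was near 0 with either label, at 0.0950 and 0.0840 CPM in splenic WT and at 0 in both splenic KO libraries. All 7 B cell and all 6 erythroid genes were detected in the 4 splenic libraries, the NK gene Klra8 was at 0 in 1 splenic KO library, and the myeloid genes S100a8 and S100a9 were at 0 in 1 splenic WT library. Without cells that held any of 9 defining B cell or myeloid genes, a filter chosen after the data were seen that took out 0.909% to 1.25% of the splenic cells, the splenic difference was 2.61 for E2f2 and -1.28 for E2f8. Without cells holding at least 2 UMIs over all B cell, myeloid and erythroid markers, which kept 3941 of 7820 and 5606 of 11160 splenic WT cells and 2844 of 7815 and 4008 of 11679 splenic KO cells, it was 3.03 for E2f2 but turned to 0.48 for E2f8, at 0.956 and 0.483 against 1.23 and 0.713 CPM. UMIs of Cst3, Ighm and Cd79b count toward that limit, and whether the cells it removed were of other types was not tested. Under the same limit the ratio of the KO to the WT mean went from 0.901 to 1.69 for E2f1 and from 1.33 to 4.995 for E2f7, and it was 1.36 for E2f4, 1.21 for E2f5 and 0.837 for E2f6 against 1.32, 1.24 and 0.827 over all cells. NK and αβ T cells were not filtered out, and their part was not tested.

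Cells with at least 1 UMI of Mki67 were more frequent with the label KO in spleen and less frequent in both thymic compartments. They made up 3.08% and 1.91% of splenic WT and 12.6% and 10.8% of splenic KO cells. The thymic γδ shares were 22.7% and 26.1% in WT and 12.02% and 9.81% in KO, and in DN1-DN3 cells 34.1% and 30.7% against 21.9% and 25.7%. The differences were 9.21, -13.5 and -8.60 percentage points. In each compartment the labels did not overlap, and the exact two-sided permutation test gave p = 0.33, the smallest that 2 libraries against 2 allow, so that it cannot reach 0.05 here. At 2000 UMIs per cell the differences were 3.32, -11.0 and -5.91 points, and with at least 2 UMIs of Mki67 they were 1.499, -14.7 and -9.09 points. With at least 3 UMIs of Mki67, a limit added after the data were seen, the splenic labels overlapped, at 0.985% and 0.565% of cells in WT and 0.947% and 0.462% in KO, while the other differences were -13.4 and -8.11 points. The higher splenic share with the label KO thus rested on cells with 1 or 2 UMIs. Most splenic KO cells with Mki67 held a single UMI of it, 750 of 986 cells (76.1%) and 1034 of 1261 cells (82.0%). That share was 59.8% and 62.0% in splenic WT and 27.3% and 24.3% in thymic γδ WT, where cells with Mki67 were deeper, with a median of 14166 and 14185 UMIs against 6403 and 6284 in splenic KO.

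The 8 genes differed in how far their level depended on Mki67. The ratio of the CPM in cells with Mki67 to the CPM in cells without had a median over the 12 libraries of 16.8 for E2f8 and 10.2 for E2f7, and was above 1 in 12 of 12 libraries for both. E2f2 followed with a median of 4.33 and E2f1 with 3.47. E2f3 (1.76), E2f6 (1.38) and E2f4 (1.10) changed less, and E2f5 had a median of 0.888 and was higher in cells with Mki67 in 3 of 12 libraries only. These ratios describe the family and were among the values that selected it.

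**Figure D2:**
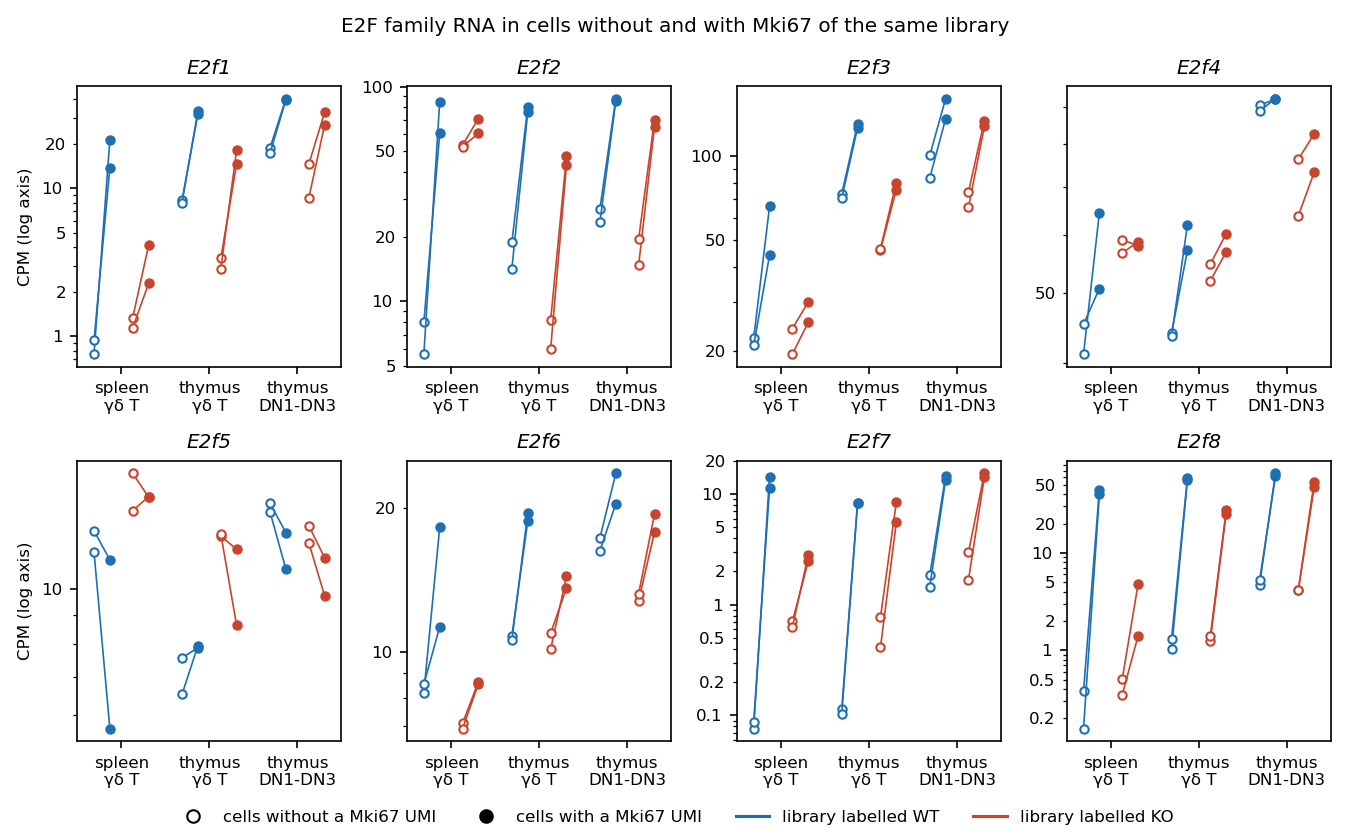
Level of each E2F gene in cells without and with a UMI of Mki67, in CPM on a log axis, with 1 line per library that joins its 2 values and a range that differs between genes. E2f2 in splenic KO lay at 53.5 and 52.5 CPM without Mki67 and 71.0 and 60.6 CPM with it, while E2f8 in thymic γδ WT went from 1.02 and 1.31 to 56.4 and 59.0 CPM.

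In splenic KO cells E2f2 was nearly as high in cells without Mki67 as in cells with it, unlike in the other groups. Among cells without Mki67 it lay at 53.5 and 52.5 CPM in splenic KO and at 8.01 and 5.70 CPM in splenic WT. Among cells with Mki67 the values were 71.0 and 60.6 CPM against 60.7 and 85.0 CPM, and the labels overlapped. The log2 difference of E2f2 in spleen was 2.99 (SE 0.23) in cells without Mki67 and -0.08 (SE 0.15) in cells with Mki67. The value in cycling cells depended on how they were chosen. Thinned to 2000 UMIs, splenic cells with Mki67 held E2f2 at 96.3 and 105 CPM in WT, from 21 and 20 UMIs, and at 64.1 and 53.8 CPM in KO, a log2 difference of -0.75 (SE 0.29). With a UMI of Top2a in place of Mki67 the levels were 45.5 and 57.7 against 69.9 and 61.6 CPM, a log2 difference of 0.43 (SE 0.15), so that the labels did not overlap in either setting and the direction was not the same. The ratio of its levels with and without Mki67 was lowest in a splenic KO library, at 1.15, and highest in a splenic WT library, at 14.9. For E2f1, E2f3, E2f4, E2f6, E2f7 and E2f8 this ratio was also lowest in a splenic KO library. Of the splenic KO cells with Mki67, 76.1% and 82.0% held a single UMI of it. Cells with Mki67 held 19.6% and 15.003% of the E2f2 UMIs in splenic KO, 33.6% in both splenic WT libraries and 78.2% in both thymic γδ WT libraries. In cells without Mki67, the share with a UMI of E2f2 was 3.29% and 2.53% in splenic WT and 22.5% in both KO libraries, and at 2000 UMIs per cell 1.43% and 1.12% against 9.83% and 9.19%.

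The lower E2f2 of the KO libraries in thymic γδ T cells was present on both sides of Mki67. It lay at 14.2 and 18.9 CPM in WT and 8.17 and 5.99 CPM in KO cells without Mki67, and at 75.9 and 80.4 against 47.3 and 43.3 CPM in cells with it. In DN1-DN3 cells the values were 27.1 and 23.4 against 14.8 and 19.6 CPM without Mki67 and 87.8 and 85.3 against 65.0 and 70.2 CPM with it. Every WT library lay above every KO library in these 4 comparisons. The log2 differences were -1.12 (SE 0.22) and -0.80 (SE 0.14) in thymic γδ T cells, and -0.49 (SE 0.21) and -0.36 (SE 0.13) in DN1-DN3 cells. Leaving out 1 library gave -0.79 to -0.30 and -0.51 to -0.25 in DN1-DN3 cells. The gap among cells with Mki67 depended on the limit. With at least 1 UMI of Mki67, the KO to WT ratio of the means was 0.580 in thymic γδ T cells and 0.781 in DN1-DN3 cells. With at least 2 UMIs it was 0.909 and 0.869.

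E2f8, E2f1, E2f7, E2f3 and E2f6 were lower with the label KO in splenic cells with Mki67. E2f8 lay at 44.4 and 39.9 CPM in splenic WT cells with Mki67 and at 4.81 and 1.41 CPM in splenic KO cells with Mki67, a log2 difference of -3.79 (SE 0.35) that ranged from -4.92 to -3.09 when 1 library was left out. E2f1 was at 21.2 and 13.8 against 4.12 and 2.28 CPM in the same cells, and E2f7 at 14.4 and 11.3 against 2.47 and 2.82 CPM. E2f3 lay at 66.0 and 44.0 against 29.9 and 25.3 CPM there. E2f6 lay at 18.2 and 11.3 against 8.65 and 8.57 CPM, but its sign turned in thinned cells. These KO values were also below those of thymic γδ KO cells with Mki67, where E2f8 lay at 25.3 and 27.3 CPM. Without Mki67, E2f8 was under 1 CPM in all 4 splenic libraries. E2f7 in cells without Mki67 rested on 3 and 5 UMIs in splenic WT and 28 and 38 UMIs in splenic KO, and on 4 UMIs in each thymic γδ WT library against 27 and 16 in KO. Its mean level there was 8.22 times as high with the label KO in spleen and 5.45 times in thymic γδ T cells, without overlap. At 2000 UMIs per cell these ratios were 3.35 and 1.69, and among thymic γδ T cells with fewer than 2 UMIs of Mki67 the ratio was 2.998. Leaving out 1 library gave log2 differences of 2.90 to 3.12 (SE 0.51 with all libraries) and 2.06 to 2.88 (SE 0.53), so that the thymic value had the opposite sign to the -1.07 of E2f7 over all cells.

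Cells were next divided by the number of Mki67 UMIs. In splenic KO, cells with exactly 1 UMI of Mki67 held E2f8 at 0.578 and 0.274 CPM, close to the 0.506 and 0.348 CPM of cells with none, and with 2 UMIs of Mki67 E2f8 was counted in 0 of 162 and 0 of 173 cells, which allows shares of up to 1.85% and 1.73% by counting error. In cells with 3 or more, E2f8 reached 38.3 and 21.7 CPM (74 and 54 cells) in splenic KO and 75.1 and 91.6 CPM (77 and 63 cells) in splenic WT. The corresponding thymic γδ values were 58.2 and 60.9 CPM in KO and 71.8 and 71.0 CPM in WT, so that the labels were closer among cells rich in Mki67. E2f2 in cells with 3 or more lay at 111 and 112 CPM in splenic KO and 67.0 and 165 CPM in splenic WT, with overlap, and at 95.9 and 83.1 against 87.1 and 89.5 CPM in thymic γδ T cells, with overlap too. With at least 2 UMIs of Mki67 as the limit, the log2 difference of E2f8 was -2.82 in spleen, -0.42 in thymic γδ T cells and -0.15 in DN1-DN3 cells.

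**Figure D3:**
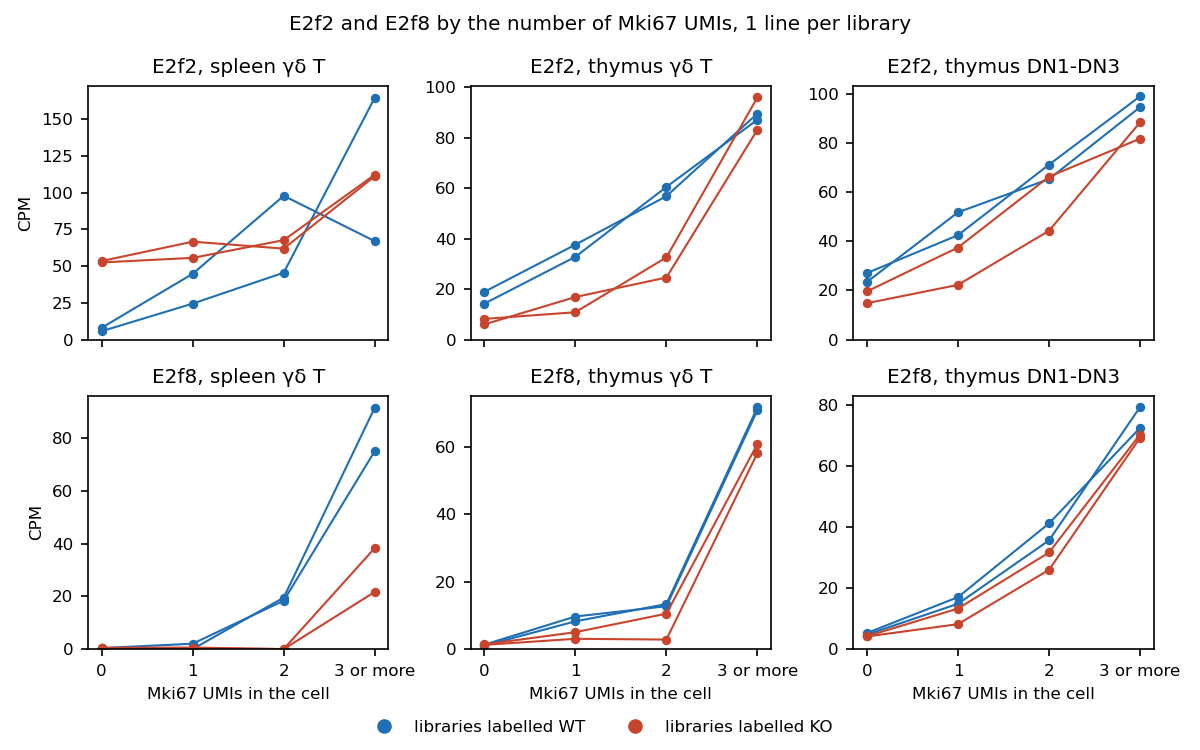
Level of E2f2 and E2f8 in CPM on a linear axis by the number of Mki67 UMIs per cell (0, 1, 2, and 3 or more), with 1 line per library. E2f8 stayed under 1 CPM up to 2 UMIs in the splenic KO libraries and reached 38.3 and 21.7 CPM at 3 or more, while E2f2 in the same libraries was above 50 CPM from 0 UMIs on.

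The γδ T cells of the labels differed in the Vγ gene they use, and E2f2 was compared within cells divided by the call of the Trgv6 gene. Trgv6 took 4.31% and 3.44% of the Trgv calls in splenic WT and 66.0% and 57.7% in splenic KO, and 0.840% and 0.991% against 44.1% and 53.3% in thymic γδ T cells. Reads of the related Trgv genes can be mistaken for each other, which limits these calls. The study also states that 3′ data capture these variable genes unreliably. It placed nearly all splenic KO γδ T cells in clusters with genes of the Vγ6 subtype. Whether splenic KO cells with another call were Vγ6 cells was not tested. Among splenic cells without Mki67, E2f2 in Trgv6 cells lay at 42.8 and 25.3 CPM in WT (160 and 204 cells) and at 55.4 and 54.2 CPM in KO (2951 and 4077 cells). In splenic cells with another Trgv call it lay at 7.43 and 5.23 CPM in WT and at 49.5 and 53.4 CPM in KO. Hence E2f2 was high in splenic KO in Trgv6 cells and in the pooled other calls, and in splenic WT it was higher in the few Trgv6 cells than in the others. Over all Trgv6 cells of spleen, the log2 difference was 0.41 (SE 0.25), against 2.59 over all cells.

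Thymic Trgv6 cells did not share the splenic level of E2f2. Without Mki67 they held 5.93 and 4.30 CPM in KO (1789 and 2464 cells), against 55.4 and 54.2 CPM in the splenic Trgv6 cells, and with Mki67 they held 11.5 and 7.73 CPM (239 and 227 cells). Thymic γδ cells with another Trgv call and Mki67 lay at 63.6 and 62.0 CPM in KO and at 74.1 and 79.0 CPM in WT. Among thymic KO cells with Mki67, E2f2 was therefore low in Trgv6 cells in both libraries. E2f8 followed the same division there, at 6.37 and 3.87 CPM in Trgv6 cells and 33.1 and 37.7 CPM in cells with another call. The thymic WT libraries had 6 and 7 Trgv6 cells with Mki67, too few for a comparison.

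**Figure D4:**
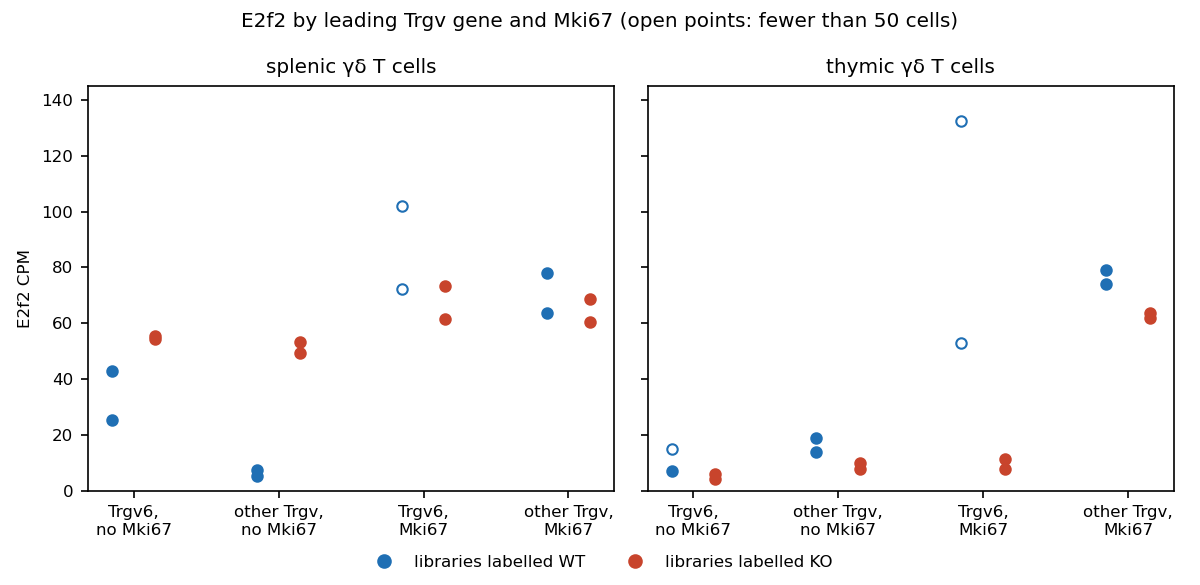
Level of E2f2 in CPM in splenic and thymic γδ T cells divided by Trgv6 call and by Mki67, with 1 point per library and WT and KO side by side. Splenic KO points without Mki67 lay between 49.5 and 55.4 CPM with either call, and thymic KO Trgv6 points between 4.30 and 11.5 CPM. Open points rest on fewer than 50 cells.

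In DN1-DN3 cells the division was made by Ptcra, which encodes the pre-T cell receptor α chain and rises at the DN3 stage. Among cells with Ptcra and Mki67, E2f2 lay at 94.7 and 87.0 CPM in WT and 74.0 and 72.6 CPM in KO, and among cells with Ptcra but without Mki67 at 29.2 and 25.1 against 17.0 and 19.9 CPM. The lower level with the label KO was thus present within cells that held Ptcra, where the log2 difference over all was -0.54 (SE 0.10).

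Across the 12 libraries, E2f1, E2f3, E2f6, E2f7 and E2f8 varied alike, with Pearson's r of log2 CPM between 0.90 and 0.99 for each pair. E2f2 had r = 0.45 with E2f1 and 0.30 with E2f8, and E2f5 had r = -0.68 with E2f8. The 5 genes most like E2f2 among 6727 genes whose mean reached 20 CPM were Foxd2os (r = 0.938), Sod1 (0.929), Racgap1 (0.928), Ybx3 (0.925) and Ndufaf2 (0.925). These r describe 12 libraries that share pools and fall into 6 groups.

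The genes around the family were not used to select it and could be tested. In spleen, 11 of 35 pathway genes rose and 12 fell with the label KO, against 28.6% and 26.1% of the 14925 genes tested, so the count is near the background. CDK inhibitors, which keep the pocket proteins active, had 5 of 7 genes higher and 1 lower and a median log2 difference of 1.94, against 0.0033 over all genes. The partners of E2F6 in polycomb complexes had 1 of 7 higher and 4 lower, with a median of -0.27. Cdkn2b, which encodes p15, lay at 0.238 and 0.118 CPM in splenic WT and 2.39 and 1.77 CPM in splenic KO. Cdkn2a, the locus of p16 and p19ARF, rose from 1.497 and 0.823 to 12.5 and 9.32 CPM (log2 difference 3.36, SE 0.29, adjusted p = 6.37e-06, edgeR quasi-likelihood test with Benjamini-Hochberg adjustment). Cdkn1a, which encodes p21, rose from 1.19 and 0.857 to 9.70 and 6.37 CPM (3.09, SE 0.31, adjusted p = 2.24e-05, same edgeR test). Of the 3 pocket proteins, 2 rose and 1 fell, with Rbl2 at 101 ± 3.77 CPM in splenic WT and 292 ± 14.2 CPM in splenic KO (SD, n = 2).

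The listed targets of the family were mixed in spleen. Of 30 G1/S genes, which act in DNA replication, 4 rose and 8 fell, with a median log2 difference of -0.18, and of 20 G2/M genes, which act in mitosis, 1 rose and 13 fell, with a median of -0.97. Set against the 26.1% of all genes that fell, the G1/S count is near the background and the G2/M count above it. Among those that fell most, Cenpf, a kinetochore protein, went from 8.60 and 6.87 to 2.37 and 1.86 CPM (log2 difference -1.78, adjusted p = 3.26e-05, edgeR quasi-likelihood test with Benjamini-Hochberg adjustment). Mcm10, Gins1, Bub1 and Hmmr also fell, by 1.36, 1.04, 1.85 and 1.53 on the log2 scale. Leaving out 1 library gave -1.99 to -0.59 for Mcm10, -2.39 to -1.34 for Bub1 and -2.16 to -1.002 for Hmmr. The counts depended on the cells included. Without cells holding at least 2 UMIs of B cell, myeloid or erythroid markers, 8 G1/S genes rose and 4 fell, 4 G2/M genes rose and 2 fell, and Mcm10, Cenpf and Hmmr were not called. Over all 13880 genes of that fit 24.8% rose and 24.2% fell, so these counts are near or under the background. Without the cells that held defining B cell or myeloid genes, the counts were 5 and 8 for G1/S and 1 and 12 for G2/M (28.8% of all genes higher, 26.2% lower). Fewer targets were called without splenic KO replicate 2, and the share of all genes called was lower there too.

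In thymic γδ T cells all 30 G1/S and all 20 G2/M genes fell with the label KO, with median log2 differences of -1.52 and -1.97, against 23.7% of all genes lower and 26.0% higher. Bub1, a checkpoint kinase, lay at 33.4 and 42.9 CPM in WT and 8.57 and 6.44 CPM in KO, and Rrm2, a subunit of ribonucleotide reductase, at 75.7 and 89.9 against 18.7 and 16.9 CPM. The named genes Mcm10, Tpx2 and Cenpf fell by 2.22, 2.17 and 2.16 on the log2 scale. Of the pathway genes 6 rose and 18 fell, and among these all 5 called MuvB and MYB-FOXM1 partners and both DP genes fell. Mybl2, a MYB factor of the same complex, fell by 2.15. CDK inhibitors divided into 4 higher and 3 lower, with Cdkn2a at 0.288 and 0.321 CPM in WT and 4.70 and 4.01 CPM in KO (log2 difference 3.94, adjusted p = 1.03e-05, edgeR quasi-likelihood test with Benjamini-Hochberg adjustment) and Cdkn2b at 0.119 and 0.0698 against 2.17 and 1.32 CPM. Myeloid markers, mainly Cst3, lay at 96.4 and 90.0 CPM in WT and 186 and 175 CPM in KO. The αβ T cell sum lay at 3175 and 3262 against 1531 and 1303 CPM. Trbc2, at 1771 and 1909 against 912 and 776 CPM, and Trbc1, at 1334 and 1288 against 565 and 472 CPM, made up most of it. Trac lay at 62.9 and 54.3 against 51.2 and 51.5 CPM. The B cell sum lay at 158 and 156 against 81.6 and 64.2 CPM. Most of it was Ighm, at 139 and 137 against 54.7 and 37.3 CPM, while Cd79b lay at 18.0 and 17.7 against 26.5 and 25.7 CPM. The part of αβ T cells in the fall of the targets was not tested, and without the cells holding defining B cell or myeloid genes the 50 targets all still fell (23.9% of all genes lower).

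In DN1-DN3 cells 14 of the 30 G1/S and 5 of the 20 G2/M genes fell and none rose, with medians of -0.55 and -0.58, while 7.72% of all genes were lower and 15.2% higher. All 50 targets had a negative difference. Prim1 and Rrm2 fell by 0.60 and 0.71 and Aurka, Ccnf and Kif11 by 0.79, 0.71 and 0.65 on the log2 scale. With the pool as a block, 43 of the 50 were called in place of 19, while 28.7% of all genes were called in place of 22.9%. The number called also hinged on single libraries, and so did the share of all genes called. Of the pathway genes 5 rose and 8 fell. Cdkn1a ran opposite to spleen, at 38.2 and 41.3 CPM in WT and 8.72 and 9.77 CPM in KO (log2 difference -2.10, adjusted p = 0.000519, edgeR quasi-likelihood test with Benjamini-Hochberg adjustment). Cdkn2a and Cdkn2b were under 1 CPM in all 4 libraries, with differences of 1.69 and 3.04. Both calls were lost without WT replicate 1, that of Cdkn2b also without KO replicate 1 or WT replicate 2, and that of Cdkn2a also without the cells holding defining B cell or myeloid genes. Those cells made up 5.19% and 6.14% of DN1-DN3 WT and 2.13% and 2.49% of KO cells, and without them 12 G1/S and 5 G2/M genes fell (7.54% of all genes lower). Summed marker levels differed in both directions. They were higher with the label KO for B cells, at 115 and 122 against 136 and 264 CPM, and for NK cells, at 9.21 and 7.11 against 29.9 and 16.5 CPM. The αβ T cell sum lay at 2082 and 2160 against 1989 and 2029 CPM, and the erythroid sum at 12.1 and 12.1 against 4.09 and 3.32 CPM. Within the αβ T cell list, Trac, a receptor chain, lay at 18.8 and 20.7 against 154 and 65.6 CPM. Trbc1, another chain, lay at 724 and 771 against 563 and 686 CPM. Without cells holding at least 2 UMIs of B cell, myeloid or erythroid markers, 10 of the 50 targets were called (19.3% of all genes called, 6.52% lower). NK and αβ T cells were not filtered out here either.

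Within cells without Mki67, the splenic targets were no longer mainly lower. Of the G1/S genes 8 rose and 7 fell, and of the G2/M genes 8 rose and 1 fell with a median of 0.36, against 27.0% of the 14390 genes tested higher and 28.3% lower. In thymic γδ T cells 24 G1/S and 4 G2/M genes fell and none rose (24.4% of all genes higher, 21.9% lower), and in DN1-DN3 cells 8 G1/S genes fell and no G2/M gene was called (16.1% higher, 8.22% lower). Of the pathway genes, 9 rose and 11 fell in spleen, 7 and 16 in thymic γδ T cells, and 5 and 8 in DN1-DN3 cells.

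Within cells with Mki67, all 30 G1/S and all 20 G2/M genes fell in spleen, with medians of -2.02 and -3.34, against 18.3% of the 13141 genes tested lower and 16.8% higher. These cells differed in make-up, since those with at least 3 UMIs of Mki67 were 32.0% and 29.6% of them in splenic WT and 7.51% and 4.28% in splenic KO, and 61.4% and 66.7% against 21.7% and 20.2% in thymic γδ T cells. In thymic γδ T cells 29 and 18 fell, with medians of -0.96 and -0.97 (16.7% of all genes lower, 18.6% higher). In DN1-DN3 cells no G1/S gene and 1 G2/M gene fell by the edgeR test, with 7 G1/S genes lower at an unadjusted p under 0.05 and 1 by DESeq2 (2.06% lower, 9.30% higher), and of all 85 listed genes 3 were called, or 19 with the pool as a block. Pathway genes numbered 4 higher and 18 lower in spleen, 5 and 18 in thymic γδ T cells, and 0 and 2 in DN1-DN3 cells. With at least 2 UMIs of Mki67, the 50 targets all still fell in spleen (17.5% of all genes lower), while in thymic γδ T cells 1 G1/S and no G2/M gene did by the edgeR test, with 4 G2/M genes lower at an unadjusted p under 0.05. The medians there were -0.35 and -0.22, and with 2.46% of all genes lower the counts are near the background. In spleen the make-up still differed at this limit. Cells with at least 2 UMIs of Mki67 were 1.24% and 0.726% of WT and 3.02% and 1.94% of KO cells. Those with at least 3 were 0.985% and 0.565% against 0.947% and 0.462%, and the targets were not tested at that limit. Depth differed beside this, with a median of 7325 and 8062 UMIs per splenic WT cell with Mki67 against 6403 and 6284 in KO, and 14166 and 14185 against 6594 and 6645 in thymic γδ T cells. At 2000 UMIs per cell, 15 G1/S and 20 G2/M genes fell in spleen (7.05% of all genes lower) and 28 and 20 in thymic γδ T cells (11.2% lower).

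**Figure D5:**
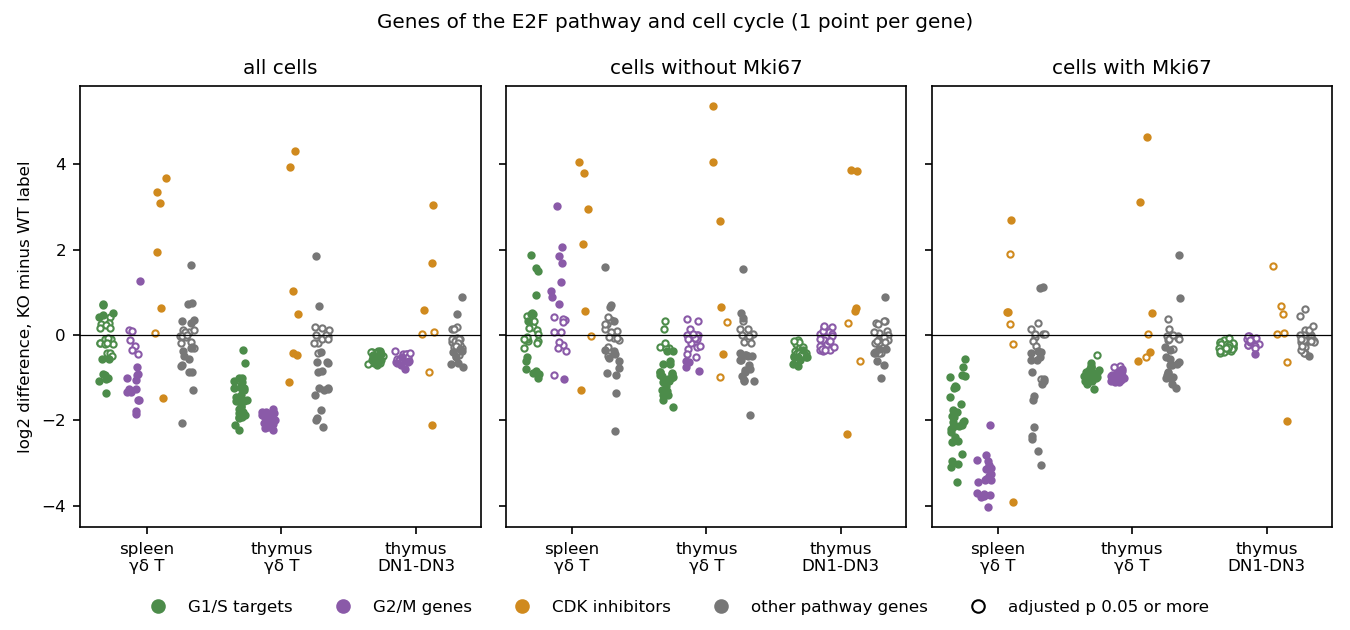
Log2 difference, KO minus WT, of the genes of each list in all cells, in cells without Mki67 and in cells with Mki67, with 1 point per gene, filled where the adjusted p was under 0.05. In thymic γδ T cells the G1/S and G2/M points lie below 0 over all cells, while in spleen they lie on both sides over all cells and at medians of -2.02 and -3.34 in cells with Mki67.

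Whether the label KO acted differently in spleen and thymus was tested by an interaction term over all cells. It was called for 26 of 30 G1/S genes and 10 of 20 G2/M genes, each with a positive sign, that is higher with the label KO in spleen relative to thymus, against 13.7% of all genes with a positive and 15.9% with a negative interaction. Of the pathway genes 13 were positive and 2 negative. The same term within cells with Mki67, a comparison added after the data were seen, had the opposite sign, with 13 G1/S and all 20 G2/M genes negative and none positive, at medians of -1.02 and -2.34 (2.17% of all genes positive, 9.37% negative). At 2000 UMIs per cell 18 G2/M genes and no G1/S gene were negative by the edgeR test, with 4 G1/S genes negative at an unadjusted p under 0.05 (4.83% of all genes negative). With at least 2 UMIs of Mki67 the counts were 27 G1/S and 20 G2/M genes (9.70% negative). Cells with a single UMI made up 76.1% and 82.0% of those with Mki67 in splenic KO and 59.8% and 62.0% in splenic WT. In thymic γδ T cells they made up 67.7% and 69.5% in KO and 27.3% and 24.3% in WT. The part of this make-up in the change of sign was not tested. Within cells without Mki67, 18 G1/S and 6 G2/M genes were positive and none negative (9.23% of all genes positive, 13.9% negative). Cdk1, the kinase of mitosis, had an interaction of 3.14 (SE 0.35, adjusted p = 0.000266, edgeR quasi-likelihood test with Benjamini-Hochberg adjustment), at 8.10 and 4.72 CPM in splenic WT, 15.4 and 13.1 in splenic KO, 88.8 and 109 in thymic γδ WT and 25.9 and 23.7 in thymic γδ KO. Cdkn2c, which encodes p18, had 2.36 and rose from 12.7 and 11.1 to 41.6 and 43.5 CPM in spleen while it lay at 43.0 and 44.7 against 34.0 and 26.5 CPM in thymic γδ T cells. Among the motifs described above, the E2F site was in 11 of the 25 G1/S genes with a window and in 1 of 16 G2/M genes, and the CHR in 3 and 11 of them.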

How the data were processed

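The authors made the files with Cell Ranger 8.0.1 on mouse genome build GRCm39, per the submitters' processing notes, and divided each pool by hashtag with hashsolo. The deposited values are UMI counts, 1 per gene and cell, to which no scaling had been applied. Genotype was taken from the label of each demultiplexed library. Following the study, barcodes under 500 UMIs, under 200 genes or over 20% mitochondrial UMIs were dropped, leaving 96911 of 97404. No doublet caller was run, so doublets within 1 label may remain. Ribosomal, mitochondrial and Gm-numbered genes (9543) were left out of tests.

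UMIs were summed per library, since cells are not replicates, and CPM relate to all UMIs of the same cells. Sums of the 12 libraries were compared in 1 fit with edgeR 4.0.16 in R 4.3.3 (quasi-likelihood F test, robust, TMM, default filter, minimum count 10), with Benjamini-Hochberg adjustment over all genes tested and a threshold of 0.05. Tests were two-sided. The study's test across cells was not used. Cells without and with Mki67 were fitted apart. A cell was given the Trgv gene with most UMIs. Libraries held 42091895 to 71663962 UMIs, and errors over 2 libraries are wide. Limits for counts of 0 cover counting error only.

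Members, lists and tests were chosen with earlier results of these data known. Lists, taken from textbook knowledge, were 30 G1/S genes, 20 G2/M genes and 35 pathway genes. All 8 members are named, with the 3 called list genes of largest difference per list and comparison, and the 5 genes most like E2f2. Some genes of the lists are not reported here. Rbl2 was named after its values were seen. Pool numbers pair WT and KO libraries, since the labels give 1 pool of both genotypes per number. Deviations of paired libraries from the label means correlated at 0.290 in spleen, 0.0629 in thymic γδ T cells and 0.175 in DN1-DN3 cells over genes. The fit was tested on simulated counts. Promoters and loci came from RefSeq and GENCODE tables of GRCm38, not the build of the files, and serve only for sequence and position. Alternatives were DESeq2 1.42.0, no filter, a pool block, single compartments, leaving out each library, another Mki67 limit, Top2a, thinning, and filters on cells.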

Additional observations from a re-analysis of the deposited data

Results flagged for a closer look

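Effects of the label KO that differed between splenic and thymic γδ T cells are listed here. By the interaction in the edgeR fit, the effect over all cells differed for 26 G1/S genes, 10 G2/M genes and 15 pathway genes. Every target among them had a positive sign, and 29.6% of all genes were called. In cells with Mki67 the effect differed for 13 G1/S genes and 20 G2/M genes, all with a negative sign, and for 8 pathway genes. There 11.5% of all genes were called, and the labels differed in how many UMIs of Mki67 these cells held. Over all cells, the interaction was 2.36 for Cdkn2c, 2.06 for Cdkn1a and 2.00 for Cdk6, a kinase of G1, among the pathway genes. It was 2.51 for Uhrf1, a reader of methylated DNA at replication forks, 2.51 for Rrm2 and 2.41 for Tk1, thymidine kinase, among the G1/S genes. It was 3.14 for Cdk1, 2.21 for Top2a, topoisomerase II, and 2.00 for Ccnf, cyclin F, among the G2/M genes. Each of these 9 was positive on the log2 scale, that is, KO minus WT was more positive or less negative in spleen than in thymic γδ T cells.

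Opposite directions in all pools, with the difference not tested, were seen for 2 members and for the share of cells with at least 1 UMI of Mki67. E2f2 differed by 2.59 in spleen and by -1.60 in thymic γδ T cells on the log2 scale. E2f7 differed by 0.55 and -1.07. In spleen its labels overlapped, with 0.974 against 0.983 CPM in pool 1, and leaving out 1 library moved its difference from -0.003 to 1.15. The share of cells with Mki67 differed by 9.21 percentage points in spleen and by -13.5 in thymic γδ T cells, but at 3 or more UMIs of Mki67 the splenic difference was -0.070 points and the labels overlapped.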

How the results depend on the processing

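With 2 libraries per label, a block by pool or the loss of 1 library moved counts most in DN1-DN3 cells, and splenic WT had only 241 and 213 cells with Mki67. Paired by pool, the replicate block gave 43 called targets in place of 19 in DN1-DN3 cells and 19 called listed genes in place of 3 in those with Mki67, and moved no other count of calls by over 1.5 times. Of all genes, it called 28.7% in place of 22.9% in DN1-DN3 cells and 15.7% in place of 11.4% in those with Mki67. In DN1-DN3 cells, the called targets numbered 8 with only the 4 libraries of the compartment and 10 without cells holding other types' markers, the pathway genes 5 in place of 13 with those 4 libraries, and the listed genes without Mki67 8 with those 4 libraries and 34 in thinned cells in place of 21. Of all genes, 14.8% were called with those 4 libraries and 19.3% with that filter, in place of 22.9%. Without Mki67, 16.1% were called with those 4 libraries and 23.5% in thinned cells, in place of 24.4%. With Mki67, the 3 calls there became 6 by DESeq2, 8 without a filter and 6 in thinned cells. Of all genes, these fits called 12.5%, 8.95% and 7.91%, in place of 11.4%. In spleen the 72 calls with Mki67 became 43 in thinned cells, while the share of all genes called went from 35.1% to 11.6%. In thymic γδ T cells the 70 became 5 at 2 or more UMIs of Mki67, while that share went from 35.3% to 10.5%.

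Leaving out 1 library at a time, splenic targets ranged from 16 to 26, DN1-DN3 targets from 1 to 35, DN1-DN3 pathway genes from 3 to 19, DN1-DN3 calls without Mki67 from 11 to 47 and with Mki67 from 1 to 20. The shares of all genes called changed with these fits too. The log2 difference of E2f2 ranged from 2.32 to 2.81 in spleen and from -0.91 to -0.45 in DN1-DN3 cells. It was 3.03 in spleen and -2.09 in thymic γδ T cells without cells holding other types' markers, and 0.41 and -2.46 in Trgv6 cells. Of members whose labels did not overlap, the sign turned for E2f8 in spleen, to 0.48 without cells holding other types' markers, and for E2f6 in splenic cells with Mki67, to 0.29 in thinned cells, and for E2f6 in splenic Trgv6 cells, to 0.43. For E2f6 over all thymic γδ T cells the KO to WT ratio turned from 0.773 to 1.03 in thinned cells, where the labels overlapped. The splenic share of cells with Mki67 turned to -0.070 percentage points at 3 or more UMIs, an alternative added after the data were seen. Where the labels overlapped, signs turned more often. Leaving out 1 library gave -0.40 to 0.24 for E2f1 and -0.13 to 0.22 for E2f3 in spleen, -0.003 to 1.15 for E2f7 in spleen, and -0.31 to 0.14 for E2f2 in splenic cells with Mki67. In thymic γδ T cells without Mki67, E2f8 went from 0.29 to -1.47 in thinned cells. The causes were not tested. Of 270 values of named list genes under alternatives, 236 kept their direction and call and 34 lost the call. Called interactions over all cells, 51 of the 85 listed genes, numbered 34 to 60 under 13 alternatives.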
